A study of Mus musculus with 384 samples.

Results

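The genes described are 10 transcription factors and associated proteins of naive pluripotency, namely Klf2, Klf4, Klf5, Tfcp2l1, Esrrb, Tbx3, Zfp42, Nr0b1, Dppa3 and Nr5a2, chosen by name and read in single cells of mouse pluripotent lines that have left the naive state. Of the 10 genes, 9 were followed among 31617 genes in the count table, and Zfp42 was not analysed here. The cells came from 2 formative stem (FS) cell lines, 5ar1 and 5ar2, and from 2 epiblast-derived stem cell (EpiSC) lines, AFX6 and AF32, and only the EpiSCs are labelled primed. FS cells were maintained in AloXR, with low activin, the tankyrase inhibitor XAV939 and a retinoic acid receptor inverse agonist, whereas AFX6 was kept in AFX (activin, Fgf2 and XAV939) and AF32 in AF (activin and Fgf2). Each EpiSC medium is therefore represented by 1 line, and line and medium cannot be told apart. Single cells were sorted into wells and sequenced by Smart-seq2, a full-length mRNA method without molecular identifiers. Of 384 cells, the 326 with at least 3000000 counts were kept, 90 of 5ar1, 90 of 5ar2, 66 of AFX6 and 80 of AF32. Kept cells had between 3022666 and 6686007 counts, and the median number of detected genes was 11371 in 5ar1 and 11567.5 in 5ar2, with 10328 in AFX6 and 10330.5 in AF32. Levels are counts per 1000000 counts (CPM) of a cell or of the summed cells of a line. A cell was scored as holding a gene at 5 CPM or more, which was at least 15.1 counts in the shallowest kept cell.

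In mouse embryonic stem cells, Esrrb, Tfcp2l1, Klf2, Klf4, Tbx3 and their partners sustain one another's transcription under leukaemia inhibitory factor or inhibition of Mek and Gsk3, and together they hold the cell in the naive state of the preimplantation epiblast. The network is dismantled as the epiblast implants, while Pou5f1 and Sox2 persist and Otx2, Pou3f1 and Fgf5 come up. In EpiSCs, forced expression of a Klf factor, Esrrb, Tfcp2l1 or Nr5a2 is known to return a minority of cells to the naive state, so the residual transcription of these genes in single cells bears on how completely the network is closed.

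The label of the lines as pluripotent and postimplantation was first compared with marker genes. Pou5f1, the POU factor of all pluripotent states, was at 5 CPM or more in 88 of 90 cells of 5ar1, 89 of 90 of 5ar2, 65 of 66 cells of AFX6 and 78 of 80 of AF32. Sox2 was at this level in 62 of 90 cells of 5ar1 and 65 of 90 of 5ar2. In AFX6 it was so in 14 of 66 cells, and in AF32 in 33 of 80. The summed level of Sox2 was 17.4 CPM in 5ar1 and 17.5 in 5ar2, with 4.88 in AFX6 and 12.7 in AF32. Otx2, a homeobox factor that rises after the naive state, stood at 175 CPM in 5ar1 and 178 in 5ar2, with 118 in AFX6 and 110 in AF32. Fgf5, a marker of the early postimplantation epiblast, was higher in both FS cell lines, at 229 and 272 CPM, than in AFX6 at 30.7 and AF32 at 44.9 CPM.

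Klf5 alone among the 9 genes reached 5 CPM in a line, and the other 8 stayed at or below 2.8 CPM in each of the 4 lines. Every line nevertheless held single cells with 1 or more of the genes well above that. The low level of a line thus came from a few cells with counts among many with none. A cell without counts may lack the transcript or may hold transcript that was not captured, and the counts do not tell these apart. At the level of lines, Klf4 and Nr0b1 were higher in both FS cell lines than in both EpiSC lines, Klf2 and Tbx3 were lower, and Klf5, Tfcp2l1, Esrrb and Nr5a2 overlapped.

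**Figure D1:**
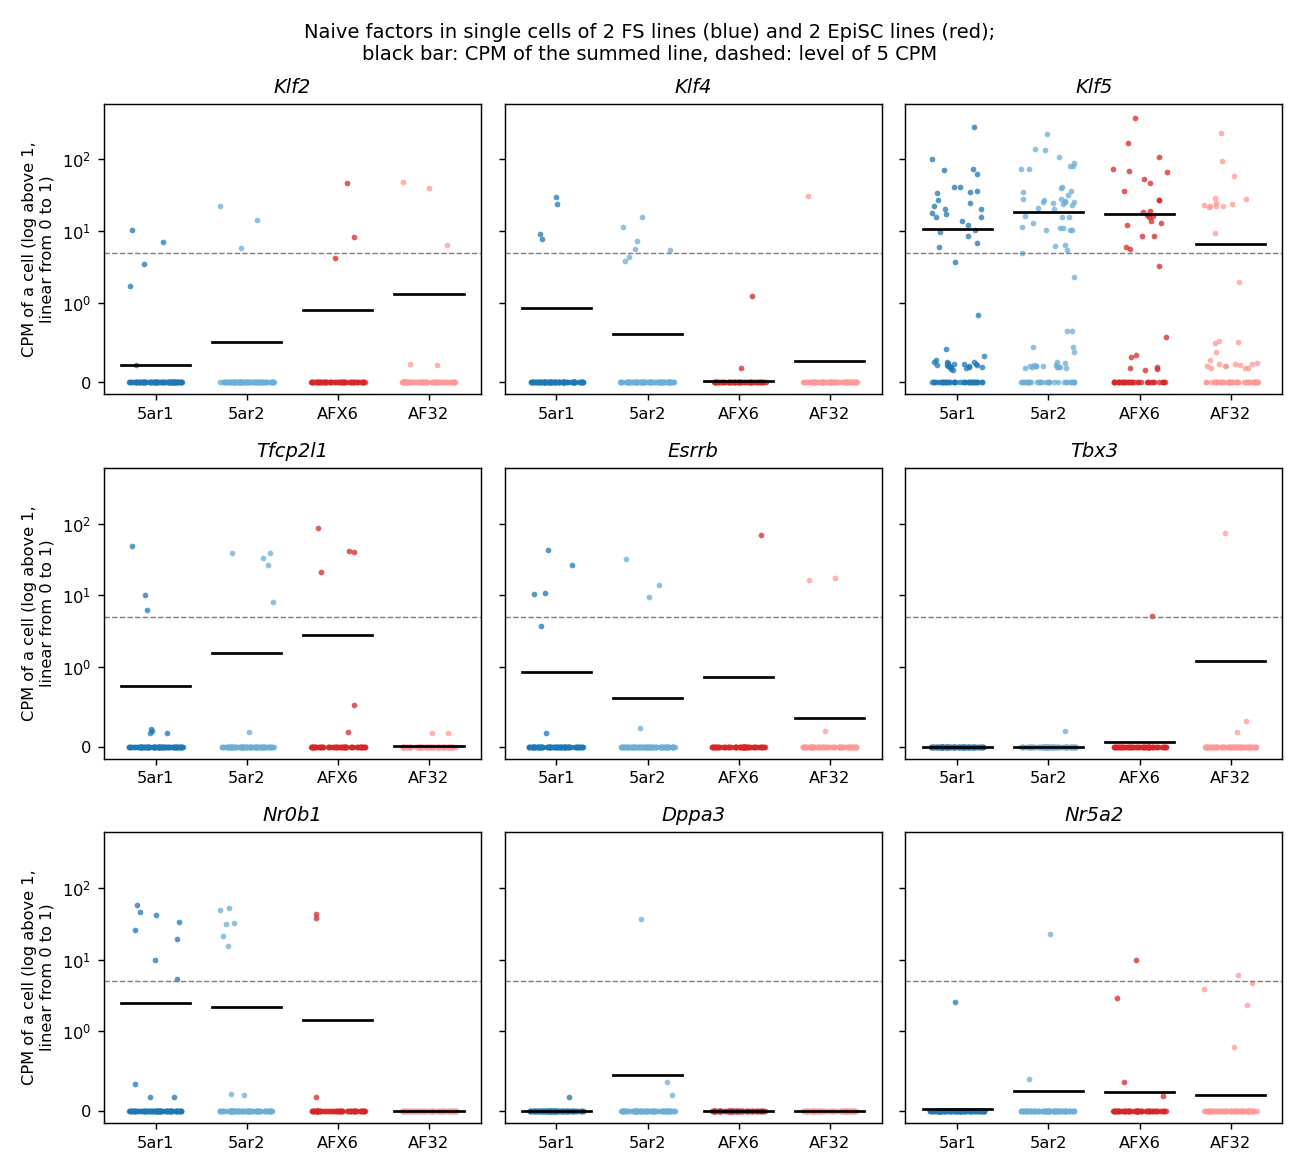
CPM of the 9 naive factors in each of the 326 kept cells (points, vertical axis linear from 0 to 1 CPM and logarithmic above), by line on the horizontal axis (FS cell lines in blue, EpiSC lines in red). Black bars mark the CPM of the summed line and the dashed line marks 5 CPM. Klf5 is present in a substantial share of cells of every line, whereas the other factors are at or near 0 in most cells with a few points up to 86.3 CPM.

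Klf5 (ENSMUSG00000005148, chromosome 14, 99298691–99315036, forward strand, GRCm38) encodes a Krüppel-like zinc finger factor that acts in naive cells and also in the trophectoderm. Its summed level was 10.6 CPM in 5ar1 and 18.6 in 5ar2, with 17.5 in AFX6 and 6.6 in AF32. The FS and EpiSC lines interleaved in this order, and the line with the lowest level was AF32. The gene was at 5 CPM or more in 26 of 90 cells of 5ar1 (28.9%, exact 95% interval 19.8–39.4%), 40 of 90 of 5ar2 (44.4%, 34.0–55.3%), 23 of 66 cells of AFX6 (34.8%, 23.5–47.6%) and 13 of 80 of AF32 (16.2%, 8.95–26.2%). These intervals, like all those below, are Clopper-Pearson intervals that cover counting error only. The distribution over cells was split into low and high values. Of the 172 cells with a Klf5 count, 66 had 1 to 3 counts, 4 had more than 3 counts but less than 5 CPM, 13 lay between 5 and 10 CPM, and 89 at 10 CPM or more. Among cells at 5 CPM or more the median was 21.4 CPM in 5ar1 and 25.3 in 5ar2, with 19.0 in AFX6 and 23.6 in AF32. The lines thus differed mainly in how many cells were at 5 CPM or more. The highest cell reached 288 CPM in 5ar1 and 224 in 5ar2, with 373 in AFX6 and 237 in AF32. Without the cell with the most Klf5 counts, the level was 8.11 CPM in 5ar1 and 16.3 in 5ar2, with 12.0 in AFX6 and 4.52 in AF32.

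Klf2 and Klf4 belong to the same zinc finger family, and Klf4 is one of the classical reprogramming factors. The summed level of Klf2 (ENSMUSG00000055148, chromosome 8, 72319033–72321656, forward strand) was 0.214 CPM in 5ar1 and 0.506 in 5ar2, with 0.914 in AFX6 and 1.3 in AF32, which placed both FS cell lines below both EpiSC lines. The share of cells overlapped between the classes, with 2 cells at 5 CPM or more in 5ar1 and 3 in 5ar2, with 2 in AFX6 and 3 in AF32. The difference in level lay in the amount per cell, since the highest cell had 10.5 CPM in 5ar1 and 22.2 in 5ar2, lower than the 46.8 of AFX6 and the 48.4 of AF32. Without the cell with the most Klf2 counts of each line, Klf2 stood at 0.126, 0.212, 0.208 and 0.683 CPM in that order, and the classes overlapped.

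Klf4 (ENSMUSG00000003032, chromosome 4, 55527143–55532466, reverse strand) showed the opposite arrangement. Its summed level was 0.933 CPM in 5ar1 and 0.602 in 5ar2, with 0.021 in AFX6 and 0.267 in AF32. In 5ar1, 4 cells held it, at 29.7, 23.5, 9.06 and 7.69 CPM, and in 5ar2, 5 cells held it, at 15.9, 11.4, 7.36, 5.69 and 5.39 CPM. AFX6 had 0 of 66 cells at this level, which allows a share of up to 4.55%, and AF32 had 1 cell at 30.5 CPM, which carried 100% of the Klf4 counts of the line. The arrangement depended on the depth limit, since a cell of AFX6 left out for low depth had 265 Klf4 counts. With all cells included, Klf4 stood at 0.919 CPM in 5ar1 and 0.589 in 5ar2, with 0.712 in AFX6 and 0.247 in AF32, and the classes overlapped.

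Nr0b1 (Dax1, ENSMUSG00000025056, chromosome X, 86191764–86195947, forward strand) encodes an orphan nuclear receptor that lacks a typical DNA-binding domain and binds Pou5f1 and Nr5a2 as partners. After Klf5 it was held by the most cells. The summed level was 2.5 CPM in 5ar1 and 2.2 in 5ar2, with 1.5 in AFX6 and 0 in AF32. In 5ar1, 8 of 90 cells (8.89%, interval 3.92–16.8%) held it, between 5.42 and 57.6 CPM, and in 5ar2, 6 of 90 cells (6.7%, 2.5–13.9%), between 15.5 and 53.2 CPM. In AFX6 there were 2 of 66 cells (3.03%, 0.369–10.5%), at 43.1 and 38.5 CPM. No count of Nr0b1 was found in the 80 cells of AF32, which allows a share of up to 3.75%. Against a floor of 3 counts over AF32, the summed level in AFX6 was 173 times higher, a ratio that covers the counting of reads only. Of the 485 counts in AFX6, 274 and 210 came from 2 cells, so the ratio is no lower bound on a difference between the lines. The share that AF32 allows (3.75%) lies above the 3.03% of AFX6.

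Tfcp2l1 (ENSMUSG00000026380, chromosome 1, 118627945–118685168, forward strand), a grainyhead-family factor, and Esrrb (ENSMUSG00000021255, chromosome 12, 86361117–86521628, forward strand), an orphan nuclear receptor, are core components of the naive network. The summed level of Tfcp2l1 was 0.759 CPM in 5ar1 and 1.6 in 5ar2, with 2.8 in AFX6 and 0.0056 in AF32. The EpiSC lines thus held both the highest and the lowest value, with 926 counts in AFX6 and 2 counts in AF32. Their ratio, AFX6 over AF32, was 495 with a counting interval of 137–4096, which covers reads and not the spread between cells. Of the 926 counts, 435, 226, 168 and 94 came from 4 cells. By share of cells at 5 CPM or more, the exact intervals of AFX6 (1.7–14.8%) and AF32 (0–4.5%) overlapped. Cells at 5 CPM or more numbered 3 in 5ar1 and 5 in 5ar2, with 4 in AFX6 and 0 in AF32, and the 4 of AFX6 reached 86.3, 41.9, 40.2 and 21.1 CPM.

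Esrrb stood at 0.938 CPM in 5ar1 and 0.609 in 5ar2, with 0.872 in AFX6 and 0.354 in AF32, and AFX6 lay between both FS cell lines. The gene was held by 4 cells of 5ar1, at 43.1, 26.2, 10.9 and 10.3 CPM, and by 3 of 5ar2, at 31.7, 14.0 and 9.62 CPM. In AFX6 a single cell, at 69.3 CPM, carried 100% of the Esrrb counts, and in AF32 there were 2 cells at 17.4 and 16.4 CPM. By share of cells, both FS cell lines (4.44% and 3.33%) lay above AFX6 (1.5%) and AF32 (2.5%), with intervals that overlapped widely.

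Tbx3, Dppa3 and Nr5a2 were held by 6 cells among them. Tbx3 (ENSMUSG00000018604, chromosome 5, 119670669–119684724, forward strand), a T-box factor, had 0 counts in 5ar1 and 1 in 5ar2, with 19 in AFX6 and 438 in AF32. In AF32 a single cell, at 74.9 CPM, carried 99.5% of the counts, and without it the line fell from 1.2 to 0.0057 CPM. Dppa3 (Stella, ENSMUSG00000046323, chromosome 6, 122626410–122630272, forward strand), a maternal and germ cell protein that protects DNA methylation after fertilization, had 1 count in 5ar1, 195 in 5ar2, and 0 in AFX6 and AF32. Of the 195 counts, 192 were in 1 cell of 5ar2 at 36.5 CPM. Nr5a2 (Lrh-1, ENSMUSG00000026398, chromosome 1, 136842571–136960448, reverse strand), a nuclear receptor that drives Pou5f1 in the epiblast, stood at 0.026 CPM in 5ar1 and 0.246 in 5ar2, with 0.238 in AFX6 and 0.205 in AF32. It was at 5 CPM or more in 1 cell each of 5ar2 (22.7 CPM), AFX6 (9.91 CPM) and AF32 (6.1 CPM).

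Compared per kilobase of exon, the only scale used here between genes, Klf5 was the highest of the 9 in every line, at 2.03 CPM per kb in 5ar1 and 3.59 in 5ar2, with 3.37 in AFX6 and 1.3 in AF32. Nr0b1 came next in 5ar1 (1.4 CPM per kb), 5ar2 (1.2) and AFX6 (0.806), and Klf2 came next in AF32 (0.711).

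The comparison of both FS cell lines with both EpiSC lines asks whether the formative and primed cultures differ in these residual transcripts. By edgeR's quasi-likelihood test on counts summed per line, with Benjamini-Hochberg adjustment over 22606 genes, 0 of the 8 naive factors tested passed an adjusted p of 0.05 with a log2 fold change beyond 1.4. Dppa3 did not pass the filter on low counts. Over all genes the same rule called 0 (0%), with 3636 genes at an unadjusted p under 0.05, so the test gave no background of calls against which to read the factors. DESeq2 on the same sums called 1454 genes, of which 717 were higher and 737 lower in FS cells, and limma on the mean CPM of cells called 0. The median log2 fold change of the 8 factors, FS over EpiSC, was -0.0092, beside -0.011 over all genes tested.

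The SE given here is the absolute log2 fold change divided by the square root of the F of the quasi-likelihood test, which itself gives no SE. By edgeR the log2 fold change, FS over EpiSC, was -1.63 ± 0.89 (SE, 2 lines against 2) for Klf2 with an adjusted p of 0.484. It was 2.4 ± 1.5 for Klf4 with an adjusted p of 0.532 by the same test, and it fell to 0.68 with all cells and ranged from 1.5 without AFX6 to 5.13 without AF32. For Klf5 it was 0.26 ± 0.63 (edgeR adjusted p = 0.916), so neither a difference nor its absence was shown for the most abundant factor. Nr0b1 gave 1.6 ± 2.5 (edgeR adjusted p = 0.850), with the EpiSC lines at 1.5 CPM and 0, and without AFX6 or AF32 it was 12.9 or 0.64. For Esrrb (0.32 ± 0.89), Tfcp2l1 (-0.28 ± 2.3) and Nr5a2 (-0.71 ± 1.3), as for Klf5 and Nr0b1, the standard error exceeded the difference. By its definition this restates an F under 1. Tbx3 had an adjusted p of 0.224 by edgeR and 0.0070 by DESeq2, which made it the 1 factor called by DESeq2. Of the AF32 counts behind that call, 99.5% came from the single cell described above, and since 5ar1 had 0 counts its fitted fold change is no measure of size.

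Klf4 and Nr0b1 (2 of 8 tested) lay above in both FS cell lines, an arrangement that 26.8% of all tested genes showed, and they kept it without the cell with the most counts of each line. With the cells of low depth included, only Nr0b1 kept it. Klf2 and Tbx3 (2 of 8) lay below in both, as did 21.5% of all tested genes, but without the cell with the most counts of each line Klf2 overlapped and Tbx3 was at 0 in 5ar1, 5ar2 and AFX6. By the share of cells at 5 CPM or more, Klf4, Esrrb and Nr0b1 (3 of 8) were higher in both FS cell lines, beside 39% of all tested genes, and Tbx3 and Nr5a2 (2 of 8) were lower, beside 8.7%. The higher counts were thus near those of genes in general, and the lower count by share rests on 2 cells with Tbx3 and 3 with Nr5a2. FS cells had more genes at 5 CPM per cell, with line medians of 7813.5 and 7915.5 against 6521.5 in AFX6 and 6753.5 in AF32. The part of this in the factors' shares was not tested.

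**Figure D2:**
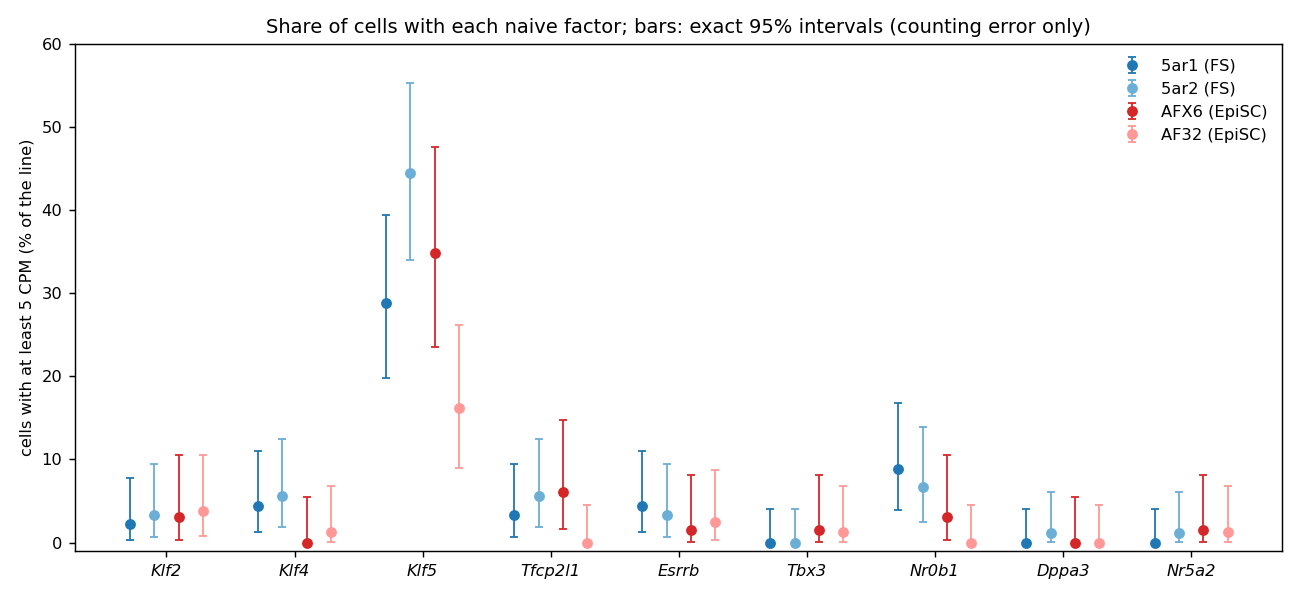
Share of kept cells with at least 5 CPM (vertical axis, percent of the line) for each naive factor, by line. Points are the shares and bars are exact 95% intervals for counting error. Klf5 lies between 16.2% and 44.4% and every other factor lies at or below 8.89%.

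Within each class, the lines were compared without a test, since there is 1 line a side. Klf5 alone had 5 CPM in either line of a pair. Its level in 5ar1 was 0.567 times that of 5ar2 (counting interval 0.547–0.588), a log2 ratio of 5ar2 over 5ar1 of 0.82 that stayed inside 1.4. Of the 10744 genes at 5 CPM in either FS cell line, 1.08% were higher in 5ar2 by that fold. In AF32 Klf5 was 0.374 times the level in AFX6 (0.356–0.392), a log2 ratio of -1.42 just past 1.4. Of 11260 genes, 5.29% were lower in AF32 by that fold. The 8 other factors were under 5 CPM in all lines and so outside these backgrounds. Relative to AFX6, AF32 had lower levels of Tfcp2l1, Esrrb, Nr0b1 and Klf5 and higher levels of Klf2, Klf4 and Tbx3. For Esrrb, Klf4 and Tbx3 the higher level was carried by 1 cell (100%, 100% and 99.5% of counts). Without the cell with the most counts of each line, Esrrb stood at 0 CPM in AFX6 and 0.148 in AF32. Klf4 was then at 0.0031 and 0 CPM, and Tbx3 at 0 and 0.0057. With all cells, Klf4 stood at 0.712 CPM in AFX6 and 0.247 in AF32.

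Single cells were then searched for several factors at once, since in naive cells the factors are transcribed together. At least 1 of the 9 factors was at 5 CPM or more in 41 of 90 cells of 5ar1 (45.6%), 49 of 90 of 5ar2 (54.4%), 27 of 66 cells of AFX6 (40.9%) and 18 of 80 of AF32 (22.5%). At least 2 were found in 6 cells of 5ar1 (6.7%, interval 2.5–13.9%), 15 of 5ar2 (16.7%, 9.64–26.0%), 6 of AFX6 (9.09%, 3.41–18.7%) and 2 of AF32 (2.5%, 0.304–8.74%). Only 2 cells of 326 (0.613%, 0.0744–2.2%) held 3 factors, both of them EpiSCs, and no cell held 4. In 5ar1 and in 5ar2, 0 of 90 cells held 3, which allows a share of up to 3.33% in each.

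Klf5 was present in 25 of the 29 cells with 2 or more factors. It was itself held by 102 of the 326 cells, against 1 to 16 cells for each other factor. Whether any pair was more or less frequent than these shares give was not tested. Klf5 was paired with Nr0b1 in 6 cells, with Klf2 in 5, with Tfcp2l1 in 5, with Klf4 in 4 and with Esrrb in 4. Pairs among the other 8 factors were rare, as 6 cells of 326 (1.8%, 0.678–3.96%) held 2 of them and 0 held 3. The 6 pairs were 6 different combinations, among them Tfcp2l1 with Esrrb, Klf2 with Tfcp2l1, and Klf4 with Esrrb, each in 1 cell. Thus no such pair occurred in more than 1 cell.

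**Figure D3:**
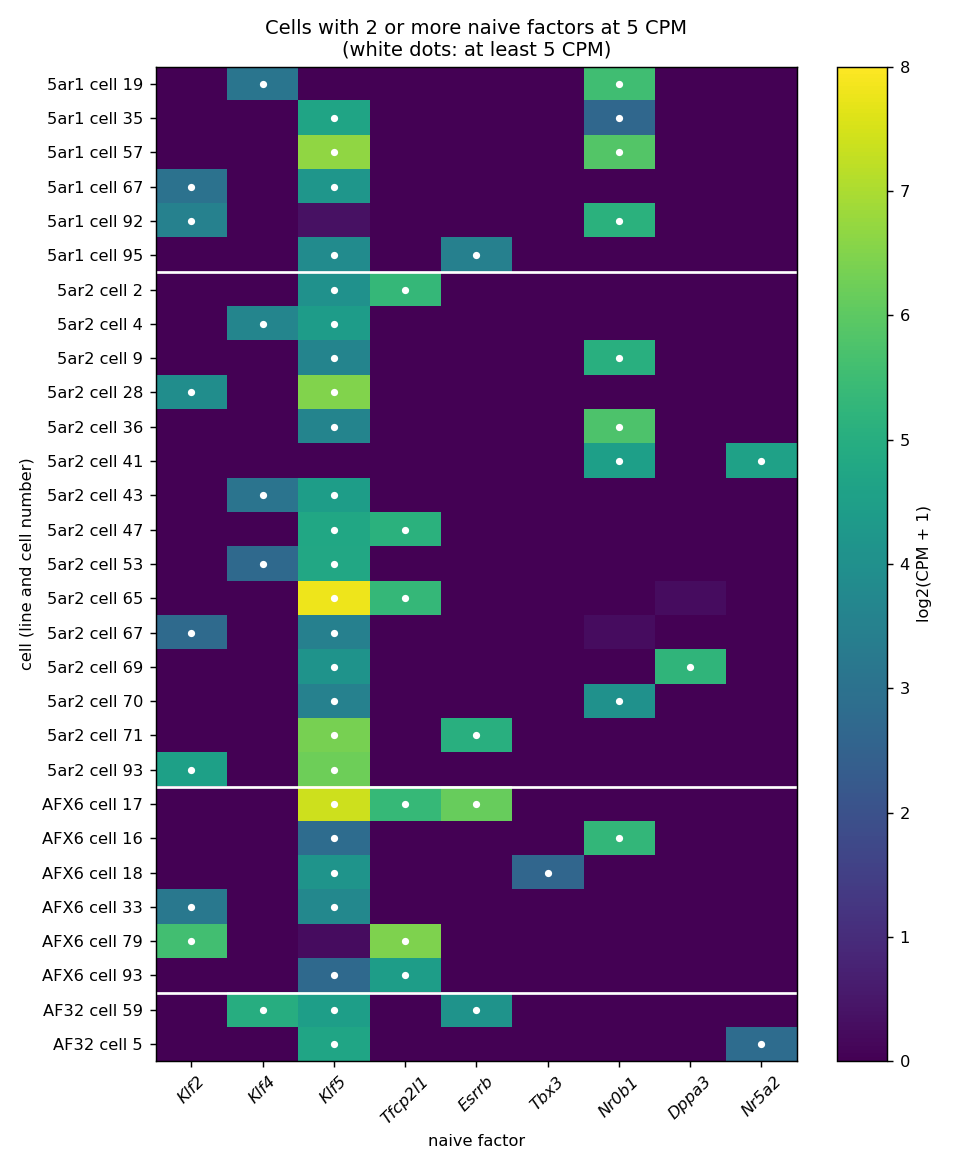
The 29 cells with 2 or more naive factors at 5 CPM or more, 1 cell per line of the map, ordered by cell line (white rules), with log2(CPM + 1) of each factor as colour and white dots at 5 CPM or more. Most cells pair Klf5 with 1 other factor, and only cell 17 of AFX6 and cell 59 of AF32 carry 3 dots.

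Cell 17 of AFX6 held Klf5 at 169 CPM, Esrrb at 69.3 and Tfcp2l1 at 40.2 CPM, with 4182969 counts and 10881 detected genes. In the same cell Pou5f1 was at 179 CPM, Otx2 at 71.7, Fgf5 at 102, Nanog at 28.9 and Sox2 at 3.35 CPM. This Pou5f1 value was the lowest among the 65 cells of AFX6 at 5 CPM or more. The median cell of AFX6 had 0.441 CPM of Fgf5 and 0 of Sox2. The general pluripotency factors of cell 17 summed to 982 CPM, 63rd from the highest of 66. The summed level of 16 other naive and ESC-enriched genes in this cell was 93.5 CPM, 56th from the highest of 66 cells of the line. Cell 59 of AF32 held Klf4 at 30.5 CPM, Klf5 at 21.5 and Esrrb at 16.4 CPM. Pou5f1 was at 533 CPM there, Nanog at 580, Otx2 at 20.6, Fgf5 at 0.321 and Sox2 at 0. The general pluripotency factors of cell 59 summed to 636 CPM, 63rd from the highest of 80. With 3111312 counts this cell lay near the depth limit, and its summed level of other naive genes, 668 CPM, was 20th of 80. By the wider naive list, neither cell led its line, whereas 2 cells with 2 factors, looked up after their values were seen, did. These were cell 2 of 5ar2, with Klf5, Tfcp2l1 and a sum of 1343 CPM, and cell 5 of AF32, with Klf5, Nr5a2 and a sum of 1243 CPM. Each sum was mostly 1 gene of the list, Spp1 at 822 CPM in cell 2 of 5ar2 and Nanog at 1088 CPM in cell 5 of AF32. The formative and postimplantation genes of these 2 cells ranked 88th of 90 and 35th of 80. Cell 2 of 5ar2 also had the highest neural sum of its line, 465 CPM, and its primitive streak and endoderm genes ranked 8th. In cell 5 of AF32 the neural genes ranked 41st, the primitive streak and endoderm genes 24th and the trophoblast genes 8th. Of markers of other cell types, cell 17 of AFX6 had 14.8 CPM summed over 6 trophoblast genes, 0.239 over 6 primitive endoderm genes, 0.478 over 5 neural genes, 0 over 5 fibroblast genes and 28.0 over 7 primordial germ cell genes, the last 6th of 66. In cell 59 of AF32 the neural genes summed to 181 CPM, 9th of its line, and the trophoblast, primitive endoderm and fibroblast genes to 0.

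Another cell was singled out after its values were seen. Cell 65 of 5ar2 had the highest Klf5 of that line, 224 CPM, with Tfcp2l1 at 39.5 CPM, while Sox2 was at 0, Otx2 at 0.605 and Fgf5 at 1.01 CPM. Pou5f1 remained at 569 CPM. Its formative and postimplantation genes summed to 956 CPM, 89th of 90 cells, its trophoblast genes to 47.0 CPM, the highest of the line, and its fibroblast genes to 81.4 CPM, 3rd from the highest. It was also 3rd of the line for the neural genes, at 361 CPM, and for the other naive and ESC-enriched genes, at 863 CPM. The part of these other markers in its Klf5 level was not tested.

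Leaving Klf5 out, at least 1 of the other 8 factors was found in 19 of 90 cells of 5ar1 (21.1%, interval 13.2–31.0%) and 23 of 90 of 5ar2 (25.6%, 16.9–35.8%). In AFX6 it was found in 9 of 66 cells (13.6%, 6.4–24.3%) and in AF32 in 7 of 80 (8.75%, 3.59–17.2%). The lower FS cell line thus lay 7.47 percentage points above the higher EpiSC line, a difference between lines that was not tested beyond their order. By share of cells at 5 CPM, 39% of all tested genes had both FS cell lines above both EpiSC lines. FS cells also had more genes at 5 CPM per cell, as given above. Without Nr0b1 as well, the difference between the lines was 3.84 points. Within lines, Spearman's rho over cells between the number of factors and the number of detected genes was -0.014 for 5ar1 (90 cells), 0.160 for 5ar2 (90), 0.330 for AFX6 (66) and 0.156 for AF32 (80), values that share the counts of the cell.

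Genes that varied with a factor over single cells were sought where at least 33 cells held it, which only Klf5 met, with 102 cells. Over 326 cells and 11809 genes, and after the mean of each line had been subtracted from log2(CPM + 1), 1 gene reached a Pearson r of 0.4 with Klf5. This was Anxa3, an annexin that binds membranes in the presence of calcium, with r = 0.45 over the lines, 0.35 in 5ar1 and 0.43 in 5ar2, with 0.55 in AFX6 and 0.49 in AF32. The points share library depth and are cells, not replicates.

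Other genes linked with the naive state were read as a list. Of 17 such genes, 16 were measured and 14 tested, and 0 were called by edgeR. By line, 6 of the 14 were higher in both FS cell lines, 3 were lower and 5 overlapped, beside 26.8% and 21.5% of all genes tested, with a median log2 fold change of 0.68. Dppa2, a chromatin protein of early embryos, stood at 7.22 CPM in 5ar1 and 0.862 in 5ar2 with 0 counts in AFX6 and AF32. Tdh, a mitochondrial threonine dehydrogenase of mouse embryonic stem cells, stood at 3.25 and 8.55 CPM in the FS cell lines, with 0.0060 in AFX6 (2 counts) and 0.011 in AF32 (4 counts). Nanog, the homeobox factor of the naive and again of the later epiblast, ran the other way at 28.5 CPM in 5ar1 and 33.5 in 5ar2, with 159 in AFX6 and 400 in AF32. Fbxo15, an F-box gene used as a stem cell reporter, was at 0.311 and 1.5 CPM in FS cells against 6.8 in AFX6 and 4.90 in AF32. Nanog transcript was thus most abundant in AF32, which was also the line with the fewest cells holding any of the 9 factors. A relation between Nanog and the factors was not tested.

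**Figure D4:**
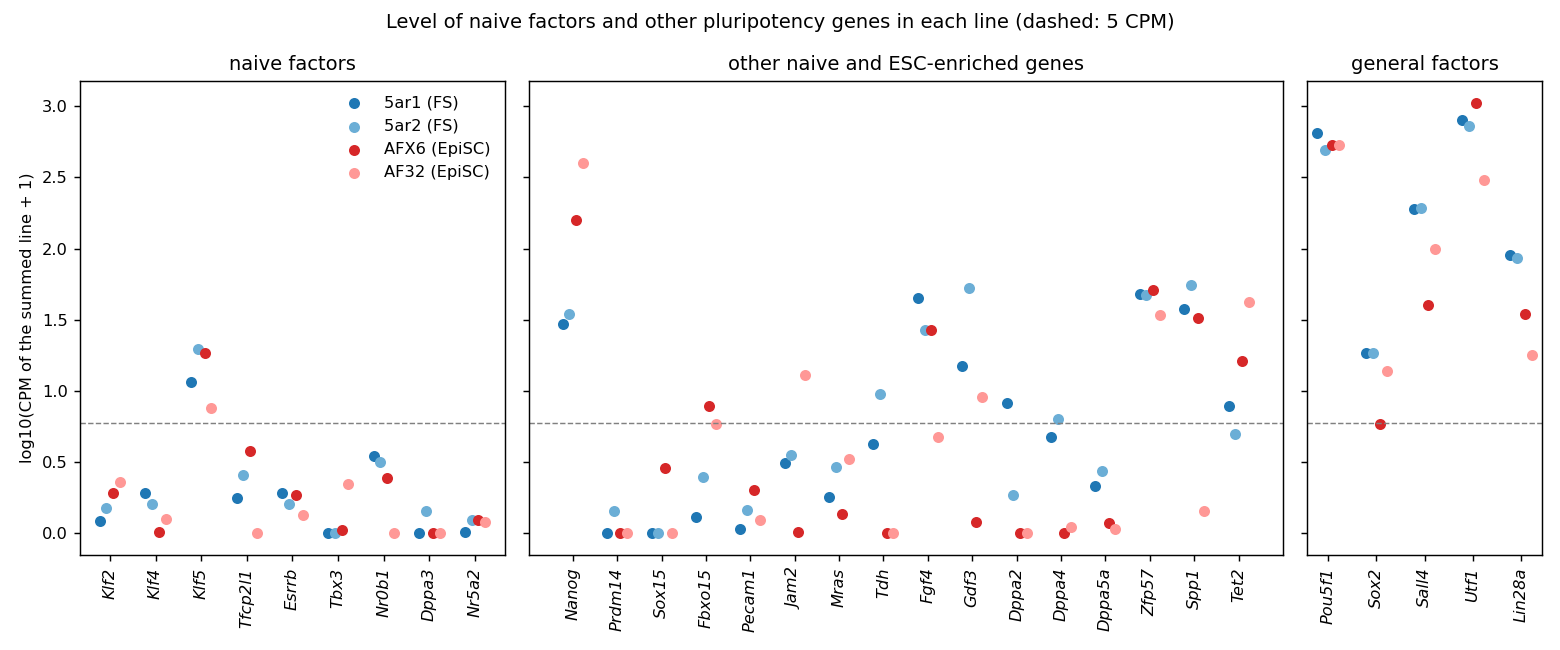
Level of each line, as log10(CPM + 1) of summed counts (vertical axis), for the 9 naive factors, 16 other naive and ESC-enriched genes and 5 general pluripotency factors, with 1 point per line (FS cell lines in blue, EpiSC lines in red) and a dashed line at 5 CPM. Among the 9 factors only Klf5 is above the dashed line, while Pou5f1, Sall4, Utf1 and Lin28a are well above it in all lines. Sox2 is above it in 5ar1, 5ar2 and AF32 and just under it in AFX6 (4.88 CPM).

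For the lists that follow, the shares over all genes tested are again 26.8% higher and 21.5% lower in both FS cell lines. Among 5 general pluripotency factors, 3 were higher in both FS cell lines and 2 overlapped, with a median log2 fold change of 0.99. The RNA-binding protein Lin28a was at 89.2 and 85.1 CPM in FS cells against 33.7 and 17.0 in EpiSCs, and the zinc finger factor Sall4 at 190 and 190 against 39.3 and 97.6. Of 12 formative and postimplantation genes 7 were higher, 1 lower and 4 overlapping (median 0.80), led by Pou3f1 at 64.3 and 33 CPM against 3.83 and 8.27. Of 9 primitive streak and endoderm genes tested, 4 were lower in FS cells and 1 higher (median -1.60). Lefty1, a Nodal antagonist, was at 4.89 and 10.7 CPM against 687 and 3818, and Eomes was higher in FS cells, at 61.3 and 48.2 CPM against 6.6 and 5.84. No gene of these lists was called by edgeR.

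Of the signals that feed the naive network, all 10 genes listed reached 5 CPM in at least 1 line, and Lifr, the receptor subunit for leukaemia inhibitory factor, stood at 1.4 CPM in AFX6. By line 2 were higher in FS cells, 2 lower and 6 overlapped (median 0.21, none called), beside 26.8% higher and 21.5% lower over all genes. Tcf7l1, the repressor of naive genes that Gsk3 inhibition relieves, was at 109 and 126 CPM in FS cells against 40.5 and 68.2 in EpiSCs. Socs3, a target of Stat3, was at 7.59 and 8.87 CPM against 17.1 and 12.1. Of 13 paralogs of the factors, 3 were higher, 3 lower and 7 overlapping, near the same shares (median -0.37), and Klf3 stood at 49.0 and 43.4 CPM in FS cells against 121 and 91.7 in EpiSCs, with Klf13 at 102 and 96.2 against 51.6 and 72.7. The count tables do not allow reads shared among such relatives to be assigned in another way.

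Among markers of other cell types, none of 7 primordial germ cell genes measured reached 5 CPM in a line, and 1 of 6 primitive endoderm genes (Dab2, up to 6.8 CPM), 2 of 6 trophoblast genes, 3 of 5 neural genes and 2 of 5 fibroblast genes did. The median cell sum of the trophoblast, primitive endoderm and germ cell lists was at most 0.208 CPM in each line, and the defining trophoblast gene Elf5 had 2 counts in 5ar2 and 0 in the other lines. The neural list was higher, with a median cell sum of 220 CPM in 5ar1 and 120 in 5ar2, with 0.491 in AFX6 and 13.5 in AF32, and a highest cell of 10109 CPM in 5ar1. The fibroblast list had medians of 0 to 1.6 CPM and a highest cell of 2609 CPM in 5ar2. Hand1 was at 23.5 CPM in 5ar1 and at most 0.26 elsewhere, and Tubb3 at 335 and 130 CPM in FS cells against 12.2 and 68.7. By line, FS cells were higher than EpiSCs for 2 and lower for 1 of 6 germ cell genes tested, for 0 and 2 of 5 trophoblast genes, for 3 and 0 of 5 primitive endoderm genes, for 1 and 0 of 5 neural genes and for 0 and 0 of 5 fibroblast genes, beside 26.8% and 21.5% of all genes, with 0 called by edgeR. The 3 primitive endoderm genes, Gata4, Sox17 and Sox7, reached at most 0.430, 0.606 and 0.796 CPM in a line. They were at 5 CPM or more in only 2, 2 and 6 FS cells.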

How the data were processed

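The authors aligned Smart-seq2 reads to GRCm38.p6 with STAR 2.7.3a and counted them on genes with featureCounts 2.0.0, and deposited raw counts of 31617 genes in 384 cells. They also deposited sctransform values, treated here as a depth-corrected score in whole numbers and used only as an alternative. Authors' comparisons were not used. Each cell's line was taken from its label, and 31565 gene IDs were matched to symbols of GENCODE M21, which also gave positions and exon lengths. Cells with at least 3000000 counts were kept, and no cells had identical counts (0 groups). Sorting placed 1 cell in a well and no doublet caller was run. CPM is the count divided by the total on genes, times 1000000. A count of 0 was read as allowing 3 counts, or 3 cells for a share. Intervals are exact at 95% and cover counting error only, since without molecular identifiers 1 molecule can give many reads.

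Lines were the replicates. Counts were summed over kept cells of each line and tested, FS against EpiSC, with edgeR 4.0.16 (TMM, filterByExpr, quasi-likelihood) in R 4.3.3, both EpiSC lines forming 1 group although their media differ. Alternatives were DESeq2 1.42.0, limma 3.58.1 on log2(mean CPM + 1), other normalization, filters, depths and levels, and each line left out. The 10 genes and the gene lists were chosen with earlier results of these data known. The factors were all named, and of each other list up to 2 genes each way with the largest fold among those at 5 CPM in a line. 1 gene of the other naive list is not reported here and was left out of its counts, sums and median. Markers of other cell types were named as well where they were the highest or a defining gene of their list, which was decided after seeing values. The description of cells lacking a factor, the results without Klf5, without Nr0b1 or without the cell with the most counts, and the levels over all cells were also added after seeing the data. Python 3.11.15 with pandas 2.3.3 and scipy 1.17.1 was used.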

Additional observations from a re-analysis of the deposited data

Results flagged for a closer look

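The 58 cells under 3000000 counts lie outside the comparisons above, and 4 factors were at 5 CPM or more among them. Klf2 was at this level in 1 of these cells, of 5ar1, at 48.5 CPM from 123 counts. Klf4 was at this level in 1 cell, of AFX6, at 275 CPM from 265 counts, which is above its highest kept cell (30.5 CPM). Klf5 was found in 4 of the 58 cells, 2 of 5ar1, 1 of 5ar2 and 1 of AFX6, up to 108 CPM, and Tfcp2l1 in 1 cell, of 5ar2, at 14.4 CPM. A level of 5 CPM was counted in these shallow cells only where it came from more than 3 counts. Esrrb, Tbx3, Nr0b1, Dppa3 and Nr5a2 were at that level in 0 of the 58. These values are listed because they come from cells left out for depth, whose median was 1703041 counts.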

How the results depend on the processing

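With DESeq2, 1454 genes and 1 factor (Tbx3) were called, and every other alternative, including each line left out in turn, called 0 genes and 0 factors, as did the reported test. The direction of 4 factors turned when a line was left out. The log2 fold change, FS over EpiSC, then ran from -0.29 (without AF32) to 1.2 (without AFX6) for Klf5, and from -1.28 (without AF32) to 7.64 (without AFX6) for Tfcp2l1. It ran from -0.21 (without AF32) to 1.1 (without AFX6) for Esrrb, and from -3.11 (without 5ar2) to 0.12 (without 5ar1) for Nr5a2. The direction of Klf4 and Nr0b1 held but the size did not. Klf4 (2.4 as reported) was 0.68 with all cells, 0.50 in limma, 1.5 with thinned cells and 6.08 with cells of at least 4000000 counts, and Nr0b1 (1.6) ran from 0.64 without AF32 to 12.9 without AFX6. Tfcp2l1 also turned to 0.12 in limma, where the cause was not tested. With cells of at least 4000000 counts, AF32 had 0 cells with 3 factors and all lines together 1, because cell 59 fell under that depth. The lower FS share minus the higher EpiSC share of cells with a factor other than Klf5 was 7.47 points as reported, 11.5 with all cells and 3.84 without Nr0b1, and stayed above 0 in every setting tried. With all cells, which adds 30 shallow cells of AFX6, the share in AFX6 went from 13.6% to 10.4%. The shares over all cells also score levels from 3 or fewer counts, such as Nr0b1 from at most 2 counts in 5ar1. Of 248 shares recomputed, 7 left their interval, all of them shares of 1 cell that went to 0. Inside their intervals, 9 moved by over 1.5 times, among them Klf5 in AF32, from 16.2% to 9.09% with cells of at least 4000000 counts, and Nr5a2 in AF32, from 1 to 4 of 80 cells at 1 CPM. Removing 14 cells with few detected genes moved none. No paired analysis was possible because the replicate numbers of the labels are cell numbers within a line and cells were summed per line. By read depth alone, a count of 0 in a single cell allows about 0.59 to 0.68 CPM at the median depth. This limit covers the sequenced reads only and not transcript that was not captured.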
